A study of Homo sapiens with 16 samples.

Results

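The PAX genes described here are PAX1, PAX2, PAX3, PAX5, PAX6, PAX7, PAX8 and PAX9, and the data are the histone H3 peaks that lie within 10 kb of 1 start of each gene on hg19. Of 192665 peaks in 12 lists, 116 met this rule, of which 110 were H3K27me3 peaks, 4 were H3K4me3 peaks and 2 were H3K9me2 peaks. The lists come from chromatin immunoprecipitation and sequencing (ChIP-seq) of H3K4me3, H3K27me3 and H3K9me2 in MCF-10A and MDA-MB-231, with 2 replicates of every mark in both lines, biological ones by the labels. MCF-10A is an immortalised, non-tumorigenic breast epithelial line that the labels describe as luminal ductal cells, and it was grown with EGF, insulin, cholera toxin and hydrocortisone. MDA-MB-231 is a breast cancer line that the labels describe as derived from a metastatic site. The labels list no treatment, each group is a single established line, and their cell type was not checked against markers because no gene annotation of hg19 was used here. The series also holds 4 input samples, not analysed here, so the copy number of these loci in either line is not known from these data.

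PAX proteins are transcription factors that bind DNA through a paired domain and set up organs and cell lineages in the embryo. By sequence they fall into subfamilies: PAX1 and PAX9; PAX2, PAX5 and PAX8; PAX3 and PAX7; and PAX6 with PAX4, which was not among the genes studied here. Genes of this kind are classical targets of the Polycomb system in cells that do not use them: PRC2 places H3K27me3 over their CpG-rich starts, often across many kb, whereas H3K4me3 marks starts that are active or poised and H3K9me2 lies in silenced chromatin.

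The H3K4me3 lists held 15568 to 16776 peaks. Of the H3K27me3 lists MDA-MB-231 replicate 1 held 8470 peaks, against 28896 to 30496 in the other 3, and for H3K9me2 the MCF-10A lists (10656 and 8885 peaks) were longer than those of MDA-MB-231 (6147 and 5045). They give positions and a score per peak but no read counts, so the depth is unknown, and a window without a peak shows only that none was called. Each score was set by the authors on a scale that no source used here states, with 50 as the lowest value, and serves below to order peaks of the same list.

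H3K27me3 was the most widespread of the 3 marks near these genes. Both MCF-10A replicates had H3K27me3 peaks near 6 of the 8 genes (75.0%), namely PAX1, PAX2, PAX3, PAX5, PAX6 and PAX7. Across the genome 6.64% of 20 kb tiles had such peaks in both MCF-10A replicates, and of 20 kb windows centred on H3K4me3 regions 10.2% did. In MDA-MB-231 both replicates had H3K27me3 near PAX2 and PAX5 only, 2 of 8 genes (25.0%) against 3.04% of tiles and 3.83% of the centred windows. PAX1 and PAX3 had it in both MCF-10A libraries and in no MDA-MB-231 library, a pattern of 3.26% of tiles and 5.47% of the centred windows. PAX2 and PAX5 had it in all 4 libraries (1.59% of tiles), PAX8 and PAX9 in none (83.3% of tiles), and PAX6 and PAX7 in both MCF-10A libraries and MDA-MB-231 replicate 2. The total covered by H3K27me3 peaks in the 8 windows was 46.49 and 45.12 kb in MCF-10A replicates 1 and 2, against 1.86 and 13.92 kb in MDA-MB-231 replicates 1 and 2. The totals of the lines did not overlap, and the MDA-MB-231 replicates were far apart. The median window held 5.02 and 4.10 kb in MCF-10A against 0 and 0.22 kb in MDA-MB-231, and the median over all tiles was 0 in each library.

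The short MDA-MB-231 replicate 1 list moves with this difference. MDA-MB-231 replicate 2 had the longest H3K27me3 list, 30496 peaks, and 13.92 kb in the windows. When all 4 H3K27me3 lists were held to their 8470 top-scoring peaks, the 8 windows held 34.69 and 37.04 kb in MCF-10A replicates 1 and 2 and 1.86 and 6.26 kb in MDA-MB-231 replicates 1 and 2. At that length 5 genes (PAX2, PAX3, PAX5, PAX6 and PAX7) had a peak in each MCF-10A list, and PAX2 was the only one with a peak in both MDA-MB-231 lists. The share of all tiles with such peaks at this length is not given here. In the limma fit described below, run on lists of this length, 32.5% of tiles and windows passed as higher in MCF-10A. In that fit 22.3% passed as higher in MDA-MB-231. The totals of the lines did not overlap at equal list length. Equal numbers of peaks do not make depth or covered bp equal, and the part of list length in the difference was not tested.

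The other marks were called near few of these genes, as in most tiles. No H3K4me3 peak was called in any library near 6 of the 8 genes (75.0%), against 89.3% of tiles, and no H3K9me2 peak near 7 of 8 (87.5%), against 89.4%. The exceptions were PAX9 and PAX3 for H3K4me3 and PAX8 for H3K9me2, described with their subfamilies. No gene had a peak of any mark in both MDA-MB-231 replicates and in neither MCF-10A replicate, a pattern of 0.618% of tiles for H3K4me3, 0.873% for H3K27me3 and 0.965% for H3K9me2.

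**Figure D1:**
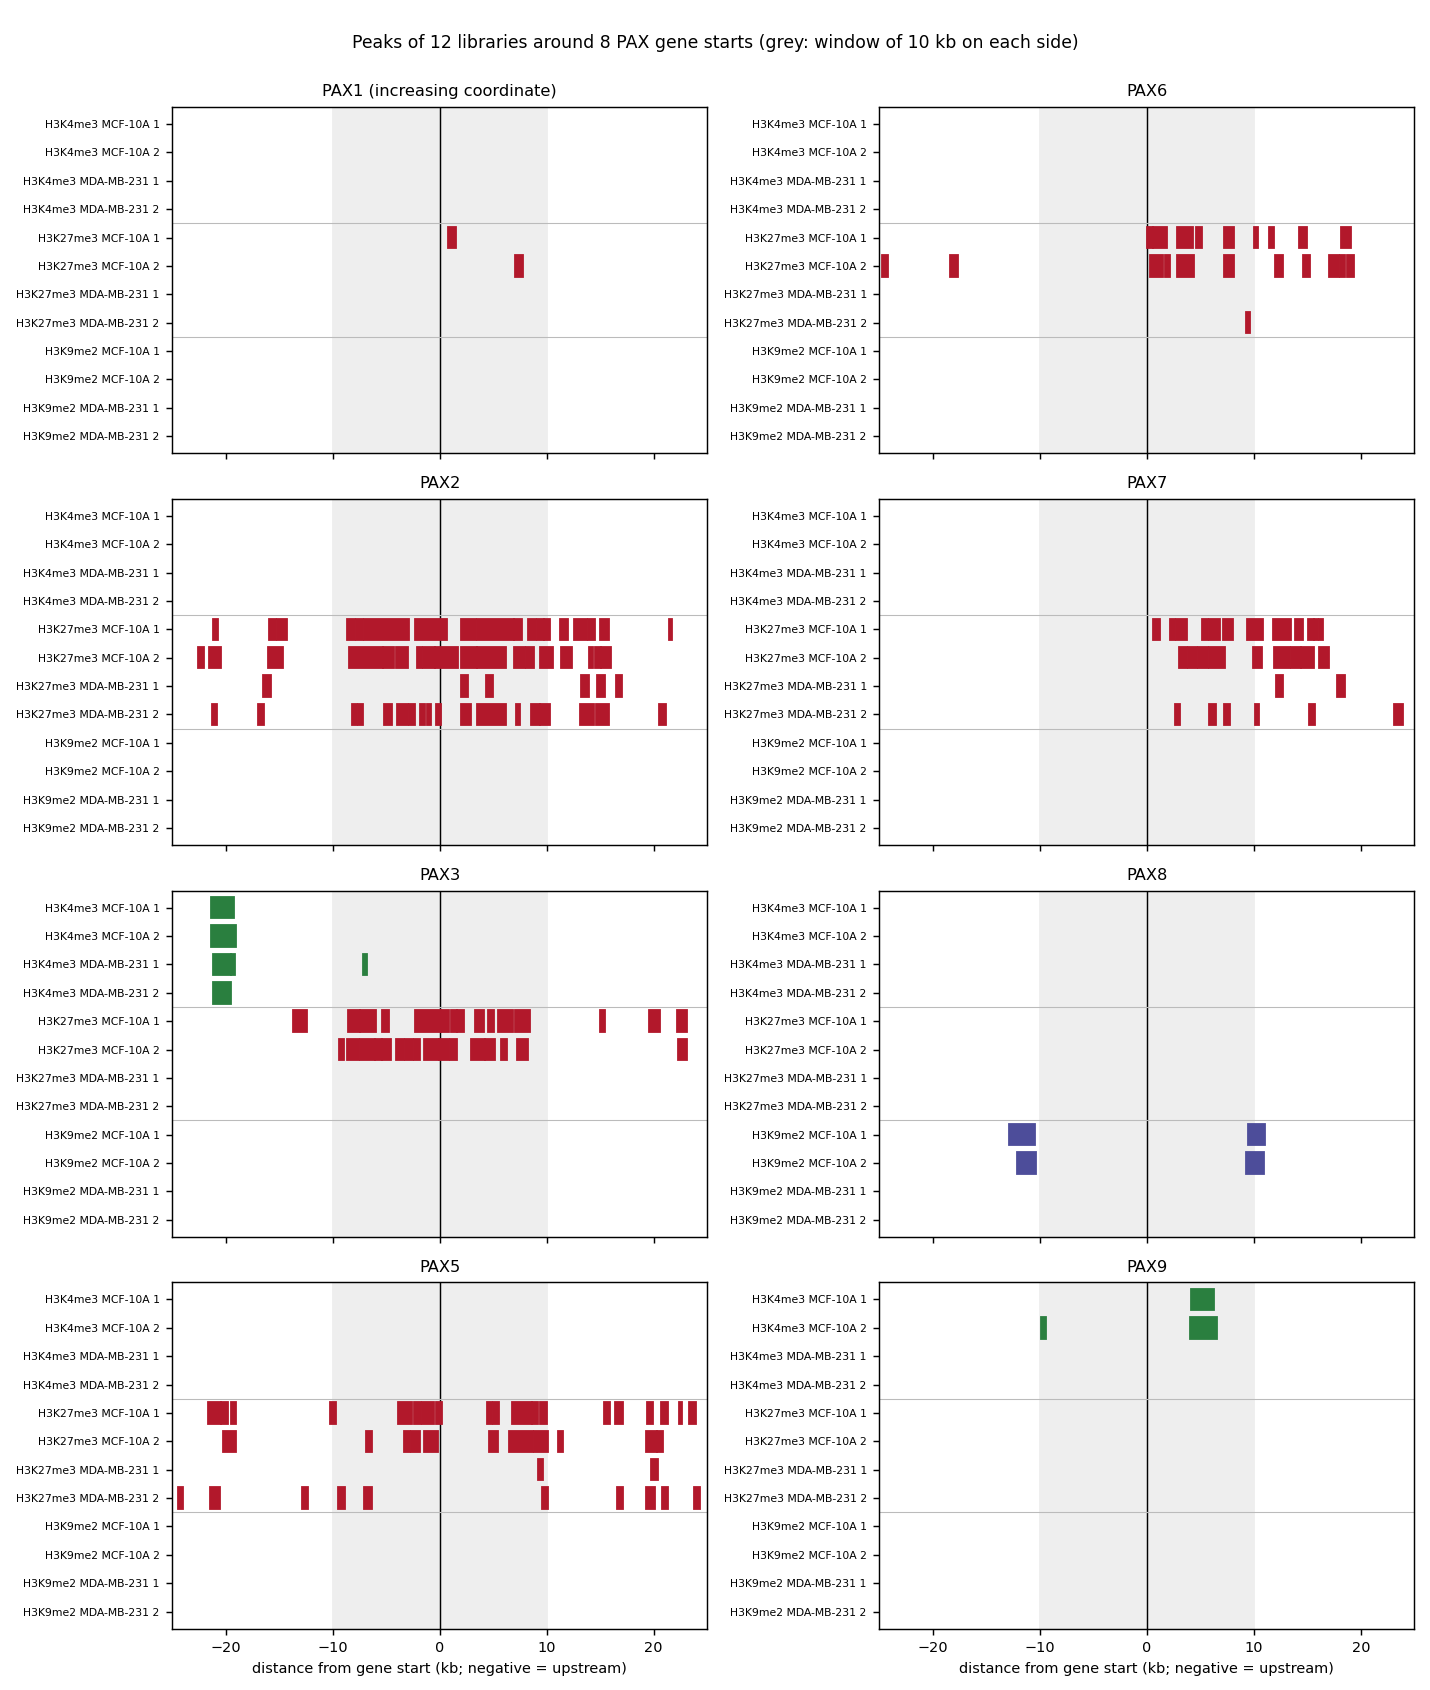
Peaks of the 12 libraries around the 8 PAX starts; the x axis is the distance from the start in kb (negative upstream in the gene's direction, increasing coordinate for PAX1), each row is 1 library, and green, red and blue are H3K4me3, H3K27me3 and H3K9me2. H3K27me3 fills much of the grey 10 kb windows of PAX2, PAX3 and PAX5 in MCF-10A, and PAX3 has no H3K27me3 peak in MDA-MB-231.

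Coverage of each window was compared between the lines with limma, fitted per mark on all 20 kb tiles and the 8 PAX windows covered in at least 2 of the 4 libraries. Values were log2 of the covered bp, divided by the Mb that all peaks of the library cover (bp/Mb), plus 10 bp/Mb, with Benjamini-Hochberg adjustment over all tiles and windows of a mark. For H3K27me3, 33.6% of the 14150 tiles and windows passed as higher in MCF-10A and 9.89% as higher in MDA-MB-231, and the median log2 ratio was −1.02, so a call towards MCF-10A is common. For H3K4me3 these shares were 8.23% and 9.39%, and for H3K9me2 47.9% and 18.6%; no PAX window passed as higher in MDA-MB-231 for any mark. A window with peaks in only 1 line that passes this filter had to differ, so for such windows only the levels and the adjusted p are printed. With 2 libraries per line a two-sided exact permutation test of 1 window cannot give a p below 1 in 3, and p-values measure only the spread between these samples. Of the H3K27me3 windows, those of PAX1, PAX3, PAX5 and PAX6 passed as higher in MCF-10A, those of PAX2 and PAX7 did not, and those of PAX8 and PAX9 had no coverage to test.

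PAX2, PAX5 and PAX8 make up 1 subfamily. PAX2 is needed for kidney, eye and ear, PAX5 for B cell commitment, and PAX8 for thyroid and kidney. In these libraries PAX2 had the most H3K27me3 of the family in both lines, PAX5 had it mainly in MCF-10A, and PAX8 had no called peak of it.

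The promoters of PAX2 are shown because its window had the widest H3K27me3 of the family, and that of PAX8 because it is the relative without it. RefSeq lists 2 starts of PAX2, 10186 bp apart, and 1 of PAX8. The 250 bases before each listed start are printed with every CG dinucleotide in capitals, the dinucleotide that is frequent in CpG islands. They come from the RefSeq promoter table on GRCh38.p14, chr10:100735146-100735395 and chr10:100745332-100745581 on the plus strand and chr2:113278922-113279171 on the minus strand. No position was converted between GRCh38.p14 and hg19, so which listed start is the one used for the peaks was not matched.
PAX2 first listed start: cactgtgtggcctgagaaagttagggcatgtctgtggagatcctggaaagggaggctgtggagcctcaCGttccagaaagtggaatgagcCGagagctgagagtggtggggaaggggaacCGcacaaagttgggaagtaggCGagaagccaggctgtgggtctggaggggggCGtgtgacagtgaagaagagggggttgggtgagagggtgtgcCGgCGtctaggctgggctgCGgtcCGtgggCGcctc
PAX2 second listed start: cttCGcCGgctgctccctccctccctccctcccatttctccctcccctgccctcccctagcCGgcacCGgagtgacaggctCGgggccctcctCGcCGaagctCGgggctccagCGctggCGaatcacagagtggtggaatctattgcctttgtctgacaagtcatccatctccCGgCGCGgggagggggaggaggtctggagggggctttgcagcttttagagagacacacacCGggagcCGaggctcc
PAX8 listed start: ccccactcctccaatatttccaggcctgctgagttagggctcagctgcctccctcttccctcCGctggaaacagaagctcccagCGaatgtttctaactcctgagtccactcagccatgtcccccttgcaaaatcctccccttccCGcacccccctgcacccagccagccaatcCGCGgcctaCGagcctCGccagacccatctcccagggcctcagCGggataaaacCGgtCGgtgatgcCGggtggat
The PAX2 sequences held 10 and 15 CG dinucleotides and the PAX8 sequence 11, where the median of 35116 listed human promoters was 11.

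At PAX2, H3K27me3 peaks covered 15.78 and 15.58 kb of the window in MCF-10A replicates 1 and 2, and 1.36 and 10.09 kb in MDA-MB-231 replicates 1 and 2. Both MCF-10A libraries were above both MDA-MB-231 libraries, and the MDA-MB-231 replicates differed more from each other than replicate 2 did from MCF-10A. Only 0.00329% of all tiles were covered as widely in either MCF-10A library, and 0.0382% in MDA-MB-231 replicate 2. The log2 ratio, MDA-MB-231 over MCF-10A, was −1.13 (SE 0.515) and did not pass (limma, adjusted p = 0.188). Leaving out MDA-MB-231 replicate 2 gave −1.77, which passed in a fit where most tiles and windows did in that direction. In windows of 25 kb on each side the ratio was −0.55, which also passed (limma, adjusted p = 0.023). Leaving out MDA-MB-231 replicate 1 gave −0.50, in a fit in which no tile or window passed. The size of the PAX2 difference thus rests on which MDA-MB-231 library is used.

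The widest PAX2 peak downstream of the start lay at nearly the same place in 3 libraries. It ran on chromosome 10 from 102508951 to 102512366 in MCF-10A replicate 1, from 102508925 to 102511673 in replicate 2 and from 102508930 to 102511707 in MDA-MB-231 replicate 2. It ranked 35, 81 and 62 by score in those lists, so it stood near the top in each. Of the bases called in the window, 100% of those of MDA-MB-231 replicate 1 lay in peaks of each MCF-10A replicate, and 91.9% and 87.8% of those of MDA-MB-231 replicate 2 lay in peaks of MCF-10A replicates 1 and 2. These MCF-10A peaks cover 78.9% and 77.9% of the whole window, so a high overlap is there without any match in place. The start itself was inside a peak in both MCF-10A libraries and in MDA-MB-231 replicate 2, where that peak was short (474 bp) and weak (score 57.51). The best-ranked peak of the family ran from 102498382 to 102502558, upstream of the start, in MCF-10A replicate 1 (score 1236.73, rank 20). In MCF-10A replicate 2 the stretch was split over peaks of 3201, 1021 and 1097 bp. In MDA-MB-231 replicate 2 it held 2 shorter peaks, of 786 and 958 bp. Their scores of 142.85 and 131.91 stood at percentiles 90.6 and 88.2 of that list, and scores are not compared between lists.

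At PAX5, H3K27me3 covered 8.02 and 7.43 kb in MCF-10A and 0.51 and 1.79 kb in MDA-MB-231 (replicates 1 and 2). The lines did not overlap, and the log2 ratio was −1.97 (SE 0.236, limma adjusted p = 0.0118). It did not pass with unscaled coverage (−2.74, limma adjusted p = 0.0564), equal list lengths (−4.33, limma adjusted p = 0.0904) or windows of 25 kb on each side (−1.21, limma adjusted p = 0.0928). Leaving out MCF-10A replicate 1, MCF-10A replicate 2 or MDA-MB-231 replicate 1 gave −1.92, −2.02 and −1.87. The call was also lost in each of these, in fits where few or no tiles passed as higher in MCF-10A. The best MCF-10A peak lay downstream of the start on chromosome 9, from 37025853 to 37027719 in replicate 1 (score 574.08, rank 239) and from 37025752 to 37027963 in replicate 2 (score 625.61, rank 132). No MDA-MB-231 peak was called at that place. The PAX5 peaks of MDA-MB-231 lay at least 6.33 kb from the start and had scores of 51.84 to 88.59. The peak of replicate 1 stood at percentile 61.4 of its list, and those of replicate 2 at 7.16, 67.7 and 43.7. The peaks of the 2 replicates shared 95 bp, so H3K27me3 at PAX5 in both MDA-MB-231 libraries rests on peaks away from the start. Within 5 kb of the start, PAX5 had H3K27me3 in both MCF-10A libraries and in neither MDA-MB-231 library.

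PAX8 had no H3K27me3 or H3K4me3 peak in any library within 25 kb of its start. Its window held 1 H3K9me2 peak in each MCF-10A library, on chromosome 2 from 114025443 to 114027084 and from 114025542 to 114027220, with scores of 88.37 and 55.15. These peaks reached from the gene side into the window, 9.41 and 9.28 kb from the start, with 587 and 723 bp inside it. A second pair lay just outside on the upstream side, at 10.48 and 10.38 kb. MDA-MB-231 had no peak in the window in either library, a pattern that 2.81% of tiles shared for this mark. The window passed the test (limma, adjusted p = 0.0026), as did 47.9% of all H3K9me2 tiles and windows in that direction. It entered the fit through MCF-10A only and so had to differ. No peak was left in the window with a score of at least 100, and with lists of equal length 1 of the 2 MCF-10A peaks was left.

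**Figure D2:**
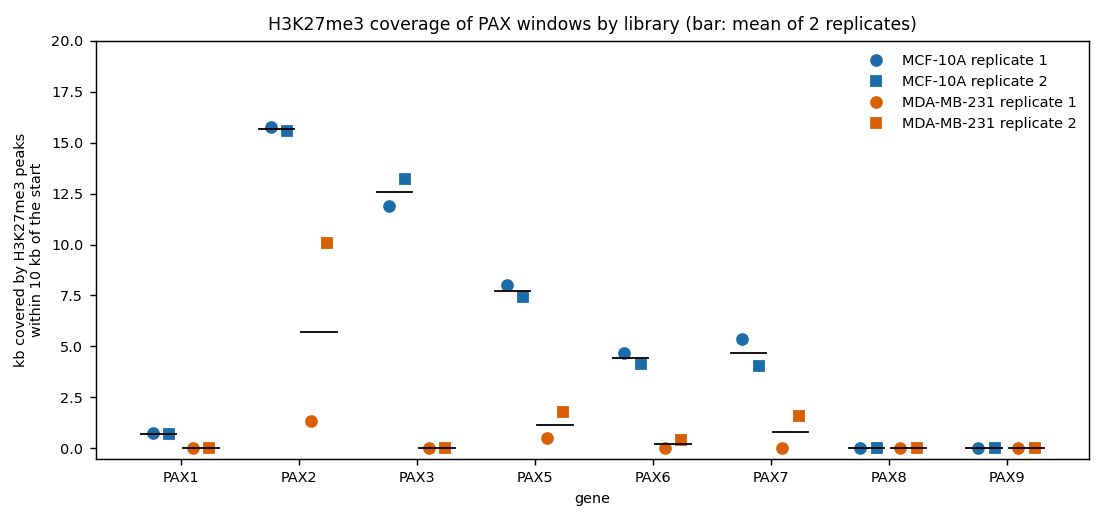
Kb covered by H3K27me3 peaks within 10 kb of each PAX start, by library; circles and squares are replicates 1 and 2, blue is MCF-10A, orange is MDA-MB-231, and bars are means of 2 replicates. PAX2 is highest at 15.78 and 15.58 kb in MCF-10A, and MDA-MB-231 is at 0 in both libraries at PAX1, PAX3, PAX8 and PAX9.

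PAX3 and PAX7 act in neural crest and in muscle, PAX3 mainly in embryonic muscle precursors and PAX7 in the satellite cells of adult muscle. H3K27me3 covered both genes in MCF-10A. Within 10 kb of the start in MDA-MB-231, PAX3 had no called peak of it and PAX7 had little, in 1 replicate only.

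The promoter of PAX3 is shown because the hg19 start of this gene lay in H3K27me3 peaks of both MCF-10A libraries and of no MDA-MB-231 library (RefSeq, GRCh38.p14, chr2:222298999-222299248, minus strand, 250 bases before the listed start, CG in capitals).
PAX3 listed start: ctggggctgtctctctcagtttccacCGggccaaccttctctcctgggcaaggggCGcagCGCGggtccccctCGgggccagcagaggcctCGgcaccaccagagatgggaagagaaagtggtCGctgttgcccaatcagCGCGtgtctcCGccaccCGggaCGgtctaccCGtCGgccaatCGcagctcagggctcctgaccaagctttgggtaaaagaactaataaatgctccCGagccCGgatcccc
It held 17 CG dinucleotides, and 39.0% of listed human promoters had at least as many. The motif CCAAT occurred at 2 places in it, counting both strands, and 32.0% of listed promoters had at least 1.

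At PAX3, H3K27me3 covered 11.88 and 13.23 kb of the window in MCF-10A replicates 1 and 2, and 0 kb was listed in either MDA-MB-231 library. The coverage was split over 11 and 15 peaks. The best-ranked was from 223163578 to 223166040 on chromosome 2 in replicate 1 (score 367.29, rank 610), which spans the start. The replicates shared 9576 bp, 80.6% of the bases of replicate 1 and 72.4% of those of replicate 2. Their peaks cover 59.4% and 66.1% of the whole window, so much overlap is there without any match in place. The window passed the test (limma, adjusted p = 0.00815), and having peaks in MCF-10A alone it had to differ. Without MDA-MB-231 replicate 1 the adjusted p was 0.0639 (limma), a fit in which no tile or window passed. No H3K27me3 peak of MDA-MB-231 was called within 25 kb of the start either, where MCF-10A held 15.6 and 14.02 kb.

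MDA-MB-231 replicate 1 had an H3K4me3 peak upstream of PAX3, on chromosome 2 from 223170504 to 223170909 (406 bp, score 65.91, rank 15938 in its list). It lay 6.79 kb from the start, and all 406 bp were inside H3K27me3 peaks of both MCF-10A replicates. MDA-MB-231 replicate 2 had no H3K4me3 peak in the window, nor had MCF-10A, so this peak was seen in 1 of 4 libraries only. It was absent with a score of at least 100 and with lists of equal length.

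At PAX7, H3K27me3 covered 5.36 and 4.04 kb in MCF-10A replicates 1 and 2, 0 kb in MDA-MB-231 replicate 1 and 1.61 kb in replicate 2. The lines did not overlap. The log2 ratio was −2.90 (SE 1.33) and did not pass (limma, adjusted p = 0.192). It passed in windows of 25 kb on each side, where all 4 libraries had coverage (−1.20, limma adjusted p = 0.0224). It also passed without MDA-MB-231 replicate 2, with a score of at least 100 and with equal list lengths (limma, adjusted p = 0.027, 0.00182 and 0.00248), but in these fits MDA-MB-231 was at 0 and the window had to differ. Coverage of PAX7 was all downstream of the start in every library that had any. Of the 1608 bp called in MDA-MB-231 replicate 2, 93.7% lay in peaks of MCF-10A replicate 1 and 49.6% in peaks of replicate 2. The 2 MCF-10A replicates shared 2529 bp, a Jaccard index (shared over all covered bases) of 0.368, which was the lowest among the 5 genes with wide coverage. The PAX7 stretch ran past the window: between 10 and 25 kb from the start MCF-10A held another 4.51 and 5.29 kb, and MDA-MB-231 1.35 and 1.79 kb.

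PAX6, a factor of eye, forebrain and pancreas, had H3K27me3 in MCF-10A on the downstream side of its start. Peaks covered 4.68 and 4.15 kb of the window in MCF-10A replicates 1 and 2, 0 kb in MDA-MB-231 replicate 1 and 0.43 kb in replicate 2. The lines did not overlap, and the log2 ratio was −3.59 (SE 0.752, limma adjusted p = 0.0391). With a pseudocount of 1 bp/Mb it was −5.43 (limma adjusted p = 0.147), and with windows covered in at least 1 library entering the fit the adjusted p was 0.0619 (limma). Leaving out MCF-10A replicate 1, MCF-10A replicate 2 or MDA-MB-231 replicate 1 gave −3.51, −3.67 and −2.75. The call was lost in each, in fits where few or no tiles passed as higher in MCF-10A. The nearest peaks ended 50 and 331 bp from the start, and no peak lay upstream of it in the window. The best peaks matched between the replicates, from 31835179 to 31836665 and from 31835141 to 31836674 on chromosome 11, with scores of 229.76 and 268.79. The single MDA-MB-231 peak lay 9.23 kb downstream, shared no base with the MCF-10A peaks, and had a score of 50.06, close to the lowest in its list. RefSeq lists 9 starts of PAX6 on GRCh38.p14, the last 17300 bp downstream of the first.

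**Figure D3:**
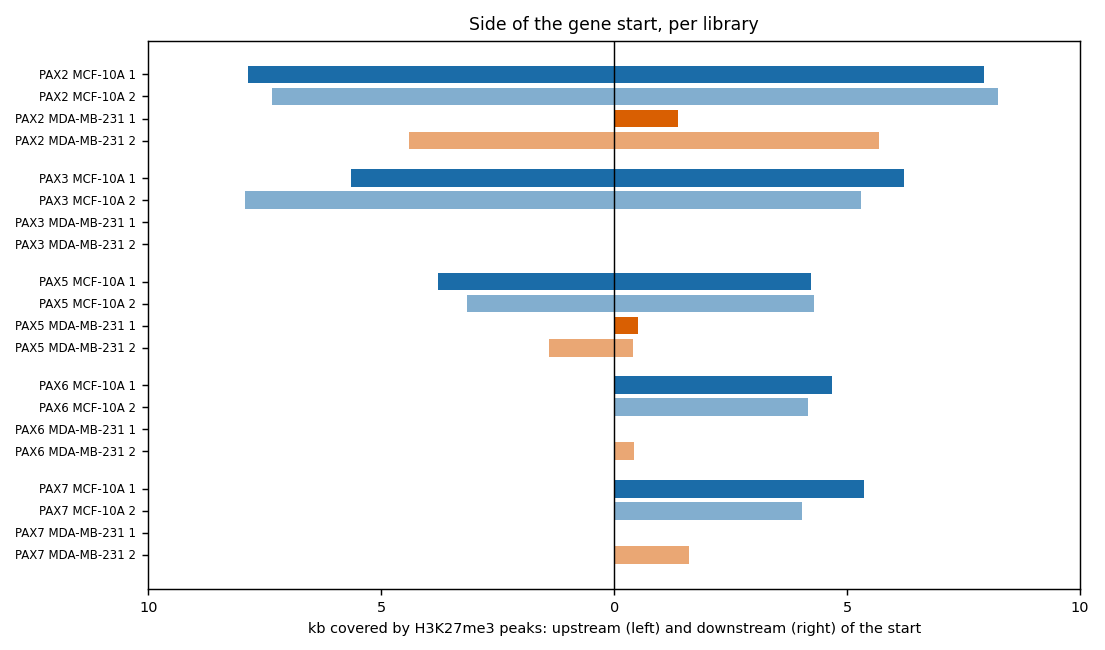
Kb covered by H3K27me3 upstream (left) and downstream (right) of the start, for the 5 genes with wide coverage; blue is MCF-10A and orange MDA-MB-231, full colour replicate 1 and light colour replicate 2. PAX2, PAX3 and PAX5 were covered on both sides in MCF-10A, whereas PAX6 and PAX7 had 0 kb upstream in every library.

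Coverage lay on both sides of the start at PAX2, PAX3 and PAX5 and on 1 side at PAX6 and PAX7. In MCF-10A replicate 1 the upstream side held 7.85 kb at PAX2, 5.65 kb at PAX3 and 3.78 kb at PAX5, and the downstream side 7.93, 6.22 and 4.23 kb. In replicate 2 the upstream values were 7.34, 7.92 and 3.16 kb and the downstream values 8.24, 5.30 and 4.28 kb. At PAX6 and PAX7 the downstream side held all of it, 4.68 and 5.36 kb in replicate 1.

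PAX1 and PAX9 are factors of the sclerotome and the pharyngeal pouches, and PAX9 is also needed for teeth and is made in squamous epithelia such as that of the oesophagus. PAX1 had little H3K27me3 and PAX9 no called peak of it. Within 10 kb of the start, PAX9 was the 1 gene of the family with H3K4me3 in both libraries of a line.

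The promoters of PAX9 are shown because RefSeq lists 2 starts, 4292 bp apart on GRCh38.p14, and H3K4me3 was found between 3.98 and 6.55 kb downstream of the hg19 start (chr14:36657318-36657567 and chr14:36661610-36661859, plus strand, 250 bases before each listed start, CG in capitals).
PAX9 first listed start: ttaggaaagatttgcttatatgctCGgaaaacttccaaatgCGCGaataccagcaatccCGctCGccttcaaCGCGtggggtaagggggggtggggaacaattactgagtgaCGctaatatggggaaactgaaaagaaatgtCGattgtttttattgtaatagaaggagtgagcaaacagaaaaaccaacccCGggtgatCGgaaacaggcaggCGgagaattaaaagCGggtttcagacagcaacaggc
PAX9 second listed start: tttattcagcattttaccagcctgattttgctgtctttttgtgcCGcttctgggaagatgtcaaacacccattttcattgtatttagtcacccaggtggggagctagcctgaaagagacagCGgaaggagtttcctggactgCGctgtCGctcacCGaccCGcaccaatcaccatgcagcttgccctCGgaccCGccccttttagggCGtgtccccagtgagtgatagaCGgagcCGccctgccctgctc
They held 13 and 11 CG dinucleotides. The motif GGGCGG, counted on both strands, was found at 2 places in the second and at none in the first, and 42.6% of listed promoters had at least 1. CCAAT was found at 1 place in the second.

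At PAX9, H3K4me3 covered 2.10 and 3.05 kb of the window in MCF-10A replicates 1 and 2, and 0 kb was listed in either MDA-MB-231 library. The main peak ran on chromosome 14 from 37130914 to 37133015 in replicate 1 and from 37130754 to 37133322 in replicate 2, with scores of 1288.1 and 1945.65. These scores stood at the 56.9th and 55.4th percentile of their lists, in the middle of the range for H3K4me3. The peak began 4.14 and 3.98 kb downstream of the start, and the start itself had no peak. A second, weaker peak of 485 bp (score 152.78) lay 9.43 kb upstream in replicate 2 only. Among all tiles 0.523% had H3K4me3 in both MCF-10A replicates and neither MDA-MB-231 replicate, and of windows centred on H3K4me3 regions 4.90% did. The window passed the test (limma, adjusted p = 0.00162, against 8.23% of tiles and windows passing in that direction), and it too entered the fit through MCF-10A alone. No H3K27me3 or H3K9me2 peak was called within 25 kb of the PAX9 start in either line, so MDA-MB-231 had no called peak of the 3 marks there.

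At PAX1, H3K27me3 covered little of the window and was not reproducible in place. MCF-10A replicate 1 had 1 peak of 764 bp on chromosome 20 from 21687093 to 21687856 (score 72.23), and replicate 2 had 1 of 688 bp from 21693348 to 21694035 (score 77.11). These peaks shared no base, and their scores stood at percentiles 51.6 and 58.3 of their lists. Neither MDA-MB-231 library had a peak. The window passed the test (limma, adjusted p = 0.00815), but the fit uses the covered length and not its place, and the window had to differ, having peaks in MCF-10A alone. Leaving out MDA-MB-231 replicate 1 lost the call, in a fit in which no tile or window passed. Letting windows covered in at least 1 library enter gave an adjusted p of 0.0542 (limma), and neither peak had a score of at least 100. Counting only peaks whose replicates share at least 1 bp, PAX1 lost its place among the genes marked in both MCF-10A libraries.

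**Figure D4:**
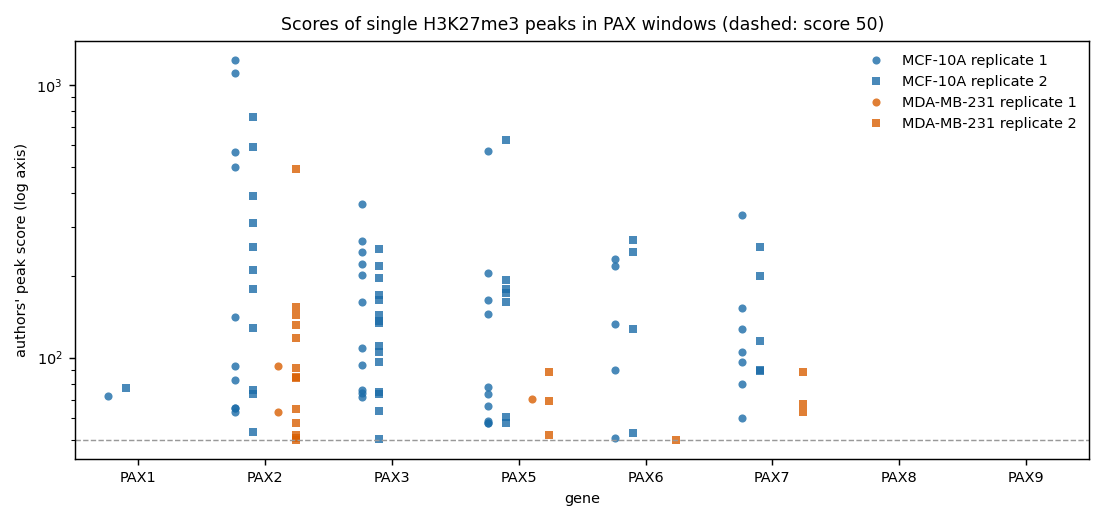
Authors' score (log axis) of every H3K27me3 peak in the PAX windows, by gene and library; blue is MCF-10A, orange MDA-MB-231, circles and squares replicates 1 and 2, and the dashed line is the score of 50. MDA-MB-231 peaks reach 152.68 at most except for 1 PAX2 peak of replicate 2 at 492.22, and scores are read within a list only.

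The called bases of the MCF-10A replicates overlapped at each widely covered gene. The Jaccard index of the 2 MCF-10A H3K27me3 libraries in the window was 0.787 at PAX2, 0.734 at PAX6, 0.646 at PAX5, 0.617 at PAX3 and 0.368 at PAX7, and 0 at PAX1. These libraries covered 78.9% and 77.9% of the window at PAX2, 59.4% and 66.1% at PAX3 and 40.1% and 37.2% at PAX5. At PAX6 they covered 23.4% and 20.7%, and at PAX7 26.8% and 20.2%. Wide coverage raises this index without any match in place, most at PAX2 and PAX3. In MDA-MB-231 it was 0.134 at PAX2 and 0.0431 at PAX5. The order of mean coverage in MCF-10A was PAX2 (15.68 ± 0.14 kb, SD, n = 2), PAX3 (12.56 ± 0.95), PAX5 (7.72 ± 0.42), PAX7 (4.70 ± 0.93), PAX6 (4.42 ± 0.37) and PAX1 (0.72 ± 0.05). PAX7 and PAX6, neighbours in this order, overlapped between replicates, and the other neighbours did not. In MDA-MB-231 the means were 5.72 ± 6.17 kb at PAX2, 1.15 ± 0.91 at PAX5, 0.80 ± 1.14 at PAX7 and 0.22 ± 0.30 at PAX6 (SD, n = 2), with an SD as large as the mean or nearly so.

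By the number of the 12 libraries in which both genes had a peak or both lacked one, PAX2 and PAX5 had the same status in all 12, as did PAX6 and PAX7. These pairs hardly stood out: 7 further pairs, PAX2 with PAX6 among them, had the same status in 11 libraries, and most of the likeness was shared absence, since PAX2 and PAX5 both had a peak in 4 libraries and PAX6 and PAX7 in 3. The relatives PAX3 and PAX7 had the same status in 10. Other relatives differed in mark: PAX8 lacked the H3K27me3 of PAX2 and PAX5, and PAX9 had H3K4me3 where PAX1 had a little H3K27me3. In neither line did a window hold peaks of both H3K4me3 and H3K27me3, and H3K4me3 was called in the windows of PAX3 and PAX9 only.

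RefSeq promoter entries were found for 7 of the 8 genes, 17 in all, with 3 to 28 CG dinucleotides in the 250 bases before the start. At the first listed start PAX5 had 27, PAX6 22, PAX7 18, PAX3 17, PAX9 13, PAX8 11 and PAX2 10. The second listed starts of PAX2 and PAX9 had 15 and 11, and which start the peaks belong to was not matched. TATAAA, counted on both strands, occurred in 1 of the 17 entries, that of PAX5, against 10.7% of listed promoters. Such matches describe letters in a short stretch and are not evidence of a bound factor.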

How the data were processed

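Each list, deposited per replicate, gives position, peak name and a score; the sources used here do not state what the authors' score measures. Per the submitters' processing notes the build was hg19 and the tools were MACS 1.4, bedtools, Bowtie2 and CASAVA 1.6; their roles, settings and use of the inputs are not given in the sources used here. Only chromosomes 1 to 22 and X entered (0.222% to 0.727% of a list left out), and printed positions count from 1. Groups came from the sample titles. A gene counted as marked in a line when both replicates had at least 1 bp of a peak within 10 kb of its start. Covered bp were counted in these windows and in 151760 tiles of 20 kb and tested with limma 3.58.1 (trend, empirical Bayes, R 4.3.3) on log2(bp/Mb + 10), threshold 0.05 after Benjamini-Hochberg adjustment. The 18048 windows centred on merged H3K4me3 regions served as a second background. Strand came from the RefSeq promoter table for 7 genes; PAX1 is given by coordinate. Python 3.11.15, NumPy 2.4.6, pandas 2.3.3 and matplotlib 3.10.9 were used, and the coverage count and the limma step were tested on simulated data. All 8 genes are named; they and the rule were chosen with earlier results of these data known. The gene starts are those of the rule, and exons and introns were not assigned. Other genes of the PAX network and cell type markers were not analysed here, for want of hg19 positions. Alternatives were other window sizes, pseudocounts, filters, scalings, score minimums, equal list lengths, the replicate block and each library left out.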

Additional observations from a re-analysis of the deposited data

How the results depend on the processing

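For H3K27me3, 2 genes were marked in MCF-10A only (PAX1, PAX3), 2 in all 4 libraries (PAX2, PAX5) and 2 in none. The MCF-10A-only count was 4 with a score of at least 100, 4 without MDA-MB-231 replicate 2 (2 to 4 over the libraries left out in turn) and 1 when replicates had to share at least 1 bp, an alternative chosen after seeing the data. The count in all libraries was 1 within 5 kb, 0 with a score of at least 100, 1 with equal list lengths, 4 when either replicate sufficed, and 2 to 4 with libraries left out, the 4 being without MDA-MB-231 replicate 1. For H3K4me3, PAX3 moved the count in all libraries from 0 to 1 within 25 kb and the MDA-MB-231-only count from 0 to 1 when either replicate sufficed or without MDA-MB-231 replicate 2 (0 to 1 over libraries left out). For H3K9me2 the MCF-10A-only count fell from 1 to 0 within 5 kb, with a score of at least 100 and with equal list lengths. The shares of all tiles in these classes under the alternatives are not given here. A score of at least 100 was reached by 26.1% and 25.4% of H3K27me3 peaks in MCF-10A replicates 1 and 2. In MDA-MB-231 replicates 1 and 2 these shares were 8.43% and 23.3%. The number of H3K27me3 windows passing limma as higher in MCF-10A, 4 as reported, was 2 when windows covered in at least 1 library entered and 0 to 6 with libraries left out: 0 without MCF-10A replicate 1, MCF-10A replicate 2 or MDA-MB-231 replicate 1, and 6 without MDA-MB-231 replicate 2. These counts go with the share of all tiles and windows that passed in that direction: 33.6% as reported, 8.67% when windows covered in at least 1 library entered, 0.23%, 0.206% and 0% without MCF-10A replicate 1, MCF-10A replicate 2 and MDA-MB-231 replicate 1, and 61.6% without MDA-MB-231 replicate 2. With an MCF-10A library left out, windows listed at 0 in MDA-MB-231 fell below the filter and gave no value, and the lone library is assumed to vary like the others. Over 90 fits of single windows none changed direction, 69 kept their side of the threshold, 15 lost it and 6 gained it. The replicate numbers are not stated to pair samples, and deviations of same-numbered libraries correlated at r = 0.13, 0.02 and 0.03 for H3K4me3, H3K27me3 and H3K9me2 across tiles. With the replicate block 3 H3K27me3 windows passed, PAX6 being lost (log2 ratio −3.59, limma adjusted p = 0.0587). Depth is unknown, so a gene without a peak cannot be told from one with too few reads.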

Other observations

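Beyond the 10 kb windows, H3K4me3 was called in all 4 libraries upstream of PAX3, on chromosome 2 from 223182932 to 223185098 in MCF-10A replicate 1 and from 223182741 to 223185136 in replicate 2, with scores of 988.39 and 1609.94. In MDA-MB-231 the corresponding main peaks ran from 223183220 to 223184904 and from 223183243 to 223184902, with scores of 416.04 and 471.68. Scores are read within a list only. They stood at percentiles 48.7 and 50.4 of the MCF-10A lists and 34.6 and 33.0 of the MDA-MB-231 lists (replicates 1 and 2). These peaks lay 19.03 to 21.42 kb from the PAX3 start, further out than the H3K27me3 found upstream of PAX3 in MCF-10A. In RefSeq the next protein-coding gene on that side is RNF228. Which gene start these H3K4me3 peaks belong to was not assigned, as no gene annotation of hg19 was used.

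Between 10 and 25 kb from the start, H3K27me3 covered 6.31 and 6.42 kb at PAX2 in MCF-10A and 2.93 and 4.49 kb in MDA-MB-231 (replicates 1 and 2), and at PAX5 6.17 and 3.38 kb against 0.67 and 4.70 kb. The PAX2 values did not overlap between the lines and those of PAX5 did. In MDA-MB-231 replicate 2, PAX5 thus held 4.70 kb outside the window against 1.79 kb inside it, while both MCF-10A replicates held more inside.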
